A study of Mus musculus with 8 samples.

Results

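Matrix metalloproteases (MMPs) and their inhibitors, the tissue inhibitors of metalloproteases (TIMPs), were followed through RNA-seq libraries of eosinophils from mouse bone marrow and small intestine. The members were the 9 genes Mmp9, Mmp12, Mmp13, Mmp14, Mmp19, Mmp25, Timp1, Timp2 and Timp3, matched by symbol among the 38392 genes of the deposited expression table. They are 6 of the 23 genes with an Mmp symbol in that table and 3 of the 4 with a Timp symbol. The study compared eosinophils at their site of production with eosinophils resident in the intestinal wall. All cells came from wildtype female mice of strain C57/BL6, untreated, with 4 libraries per tissue, and ages are given only as a range for the study as a whole. Bone marrow cells were gated as CD11b+Ly6G-Ly6C-SiglecF+SSChi after flushing of the bone. Small intestinal cells were gated as CD11b+MHC-II-SiglecF+SSChi, after the epithelium had been stripped, the tissue digested warm with collagenase and the cells enriched on CD11b beads. Tissue, gate and handling therefore changed together and cannot be told apart. Libraries are named by the columns of the table, in which BM marks bone marrow (BM_1, BM_3, BM_4, BM_5) and SI small intestine (SI_6, SI_7, SI_10, SI_11).

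MMPs are zinc-dependent endopeptidases that are made as inactive proenzymes and, once activated, cut collagens, other matrix proteins, cytokines and cell surface proteins. Most are secreted, whereas Mmp14 crosses the membrane and Mmp25 is anchored to it by a lipid. TIMPs bind the active site of MMPs and block it, so the balance of enzyme and inhibitor sets how much matrix is cut. In granulocytes, Mmp9 (gelatinase B), Mmp25 (leukolysin) and Mmp8 (neutrophil collagenase) are best known as late granule or membrane enzymes of neutrophils, and Mmp12 is the elastase of macrophages.

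Promoter sequences are shown first because the MMP genes fell into sets that differed in these letters. The RefSeq table for GRCm38.p6 held a window from 250 bases before to 50 bases after a start site for 7 of the 9 members and for 22 of the 27 Mmp and Timp genes. The 250 bases before the start are printed for Mmp25, the member with most reads, for Mmp13 and for Mmp3 of the same gene cluster, which shared motif letters, and for the inhibitors Timp2 and Timp3. They lie at chr17:23645270-23645519 (Mmp25, minus strand), chr9:7272264-7272513 (Mmp13, plus), chr9:7445572-7445821 (Mmp3, plus), chr11:118355412-118355661 (Timp2, minus) and chr10:86300162-86300411 (Timp3, plus). Capitals mark matches to a motif on either strand, and no marked matches overlap in these stretches. The motif of the AP-1 factors was searched as TGANTCA, in which N is any base. The myeloid factors were searched as TTNCNNAA for the C/EBP family and as GAGGAAG for the factor PU.1. The core of the element bound by the aryl hydrocarbon receptor (AHR) was searched as GCGTG, and the TATA box of many regulated promoters as TATAAA.
Mmp25: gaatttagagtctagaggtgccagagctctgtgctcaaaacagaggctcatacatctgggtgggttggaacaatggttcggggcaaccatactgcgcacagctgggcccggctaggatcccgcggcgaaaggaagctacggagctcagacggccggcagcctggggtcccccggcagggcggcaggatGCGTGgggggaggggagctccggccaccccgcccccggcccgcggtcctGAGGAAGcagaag
Mmp13: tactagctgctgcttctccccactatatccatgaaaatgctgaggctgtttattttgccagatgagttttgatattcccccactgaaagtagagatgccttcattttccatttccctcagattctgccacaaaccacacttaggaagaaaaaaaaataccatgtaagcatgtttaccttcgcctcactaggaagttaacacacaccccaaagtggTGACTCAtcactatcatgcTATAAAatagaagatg
Mmp3: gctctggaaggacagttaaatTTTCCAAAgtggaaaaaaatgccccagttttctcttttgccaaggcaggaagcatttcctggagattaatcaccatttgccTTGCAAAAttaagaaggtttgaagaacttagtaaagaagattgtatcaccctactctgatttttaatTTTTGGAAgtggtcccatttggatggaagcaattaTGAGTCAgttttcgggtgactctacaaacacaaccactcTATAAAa
Timp2: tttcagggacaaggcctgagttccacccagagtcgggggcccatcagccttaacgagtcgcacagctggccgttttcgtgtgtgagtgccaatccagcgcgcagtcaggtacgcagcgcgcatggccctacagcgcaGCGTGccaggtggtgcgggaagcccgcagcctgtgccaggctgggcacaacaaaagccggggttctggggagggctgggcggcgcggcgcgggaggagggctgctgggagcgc
Timp3: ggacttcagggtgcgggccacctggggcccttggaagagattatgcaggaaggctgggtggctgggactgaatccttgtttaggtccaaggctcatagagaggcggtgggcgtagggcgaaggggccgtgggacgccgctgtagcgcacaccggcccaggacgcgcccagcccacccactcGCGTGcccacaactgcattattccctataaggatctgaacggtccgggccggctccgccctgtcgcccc

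AP-1 letters stood in a window of 8 of the 10 MMP genes that lie within 427 kb of each other on chromosome 9 (GRCm38, chr9:7272514-7699585), and all 8 had TATA letters in that window too. They stood in no window of the other 12 family genes with an entry. Of all 32851 promoter windows of this length, 7.81% held the AP-1 letters, 13.6% the TATA letters and 1.54% both. These shares count windows, whereas the family counts are of genes, some of which, such as Mmp12 and Mmp7, have more than a single window. Neighbouring genes of a family need not be independent cases. The matches in Mmp13 began 35 bases (AP-1) and 16 bases (TATA) before the start, and those in Mmp3 began 46 and 7 bases before it. AHR letters were found in 4 of the 7 members with a window (Mmp25, Timp1, Timp2 and Timp3), against 32.4% of all windows. The other shares over all windows were 40.7% for C/EBP and 13.6% for PU.1. The 250 bases were 66.0% G or C in Mmp25, 68.0% in Timp2 and 65.6% in Timp3, against 40.4% in Mmp13 and 37.6% in Mmp3, with a median of 52.4% over all windows. A match is a description of letters, and no binding was measured.

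Depth ran from 11508002 to 21289164 reads in genes per library. Reads per gene were recovered as whole numbers from the deposited values, and a normalised read count is that number divided by the size factor of the library. Between tissues, limma called 22.0% of all genes higher and 12.9% lower in small intestine at an adjusted p under 0.05, and the groups of libraries stood apart without overlap for 20.3% of genes on the higher side and 13.9% on the lower. The bone marrow libraries, labelled eosinophils, held the eosinophil granule transcripts Epx and Prg2 but mostly markers of the neutrophil line. The summed level of 11 neutrophil genes, led by Mpo and Elane, was 490323 to 633332 normalised reads there against 743 to 1025 in small intestine, and each of the 11 fell. With Retnlg, the other gene of that list, which rose from 421 to 45675, the sums were 490862 to 634046 and 38522 to 55303. The level of 8 eosinophil genes was 4290 to 5302 and 33920 to 46741. Of these eosinophil genes, Siglecf, Ccr3, Il5ra and Alox15 rose in small intestine and the granule genes Epx, Prg2, Prg3 and the factor Cebpe fell. BM_5 held reads for 30886 genes against 19713 to 24592 in the other bone marrow libraries and 26624 to 33346 in the small intestinal ones. In such bulk samples, fewer cells of a type and less RNA per cell cannot be told apart. The labels list separate samples, and p-values measure only the spread between them.

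Of the 9 members, 6 rose in small intestine (Mmp9, Mmp25, Mmp13, Mmp14, Timp2 and Timp3), 1 fell (Mmp19) and 2 were not called (Mmp12 and Timp1). The tissues stood apart without overlap for those 6 and that 1, and overlapped for the other 2. Over all genes, 22.0% were called higher and 12.9% lower, and 20.3% and 13.9% stood apart on those sides. Among the 16215 genes with at least 10 reads on average, 39.2% were called higher and 33.7% lower. The median difference of the members was 3.02 on the deposited log2 scale, against 0.37 over all genes. Mmp9 and Mmp25 had at most 303 reads in a bone marrow library and at least 4791 in a small intestinal one, while the inhibitors that rose reached at most 320 reads.

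**Figure D1:**
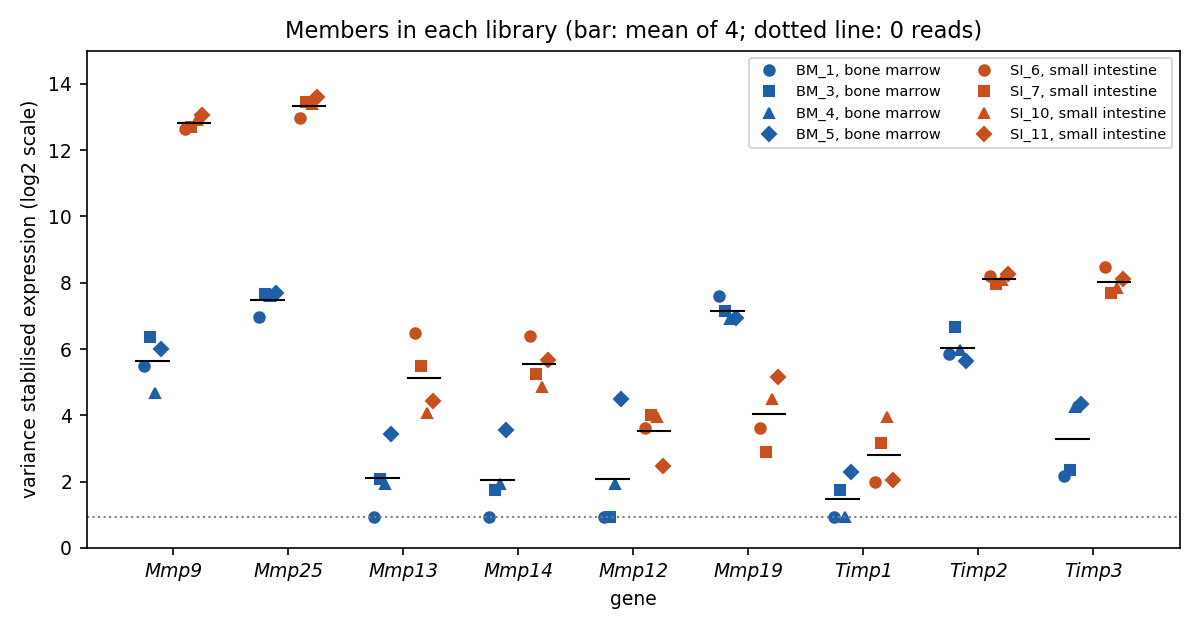
Deposited variance stabilised expression (log2 scale) of the 9 members in each of the 8 libraries, with blue symbols for bone marrow and orange for small intestine, a bar at the mean of 4 libraries and a dotted line at the value of 0 reads. Mmp9 and Mmp25 stand above all other members in small intestine, Mmp19 is the member with lower values there, and the tissues overlap for Mmp12 and Timp1.

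Mmp9 (ENSMUSG00000017737, chr2:164940780-164955850, plus strand), which degrades denatured collagen and basement membrane collagen, had 54 reads in BM_1, 121 in BM_3, 23 in BM_4 and 65 in BM_5. It had 5831 in SI_6, 4791 in SI_7, 7076 in SI_10 and 7252 in SI_11. The lowest small intestinal library was thus far above the highest bone marrow library. The mean was 50.7 ± 24.5 normalised reads in bone marrow against 7336 ± 1028 in the small intestine (SD, n = 4 each), a ratio of 145. The difference was 7.19 ± 0.36 (log2, SE; limma adjusted p = 2.80e-06). It ranked 125th among the differences of all 38392 genes from the most positive.

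Mmp25 (ENSMUSG00000023903, chr17:23628311-23645277, minus strand), the lipid-anchored leukolysin, had 159, 303, 197 and 219 reads in BM_1, BM_3, BM_4 and BM_5. It had 7361, 8027, 9738 and 10388 in SI_6, SI_7, SI_10 and SI_11. The 4 small intestinal libraries lay close together and the groups did not overlap. The mean went from 178 ± 37.9 to 10533 ± 1806 normalised reads (SD, n = 4 each), a ratio of 59.2, and the difference was 5.87 ± 0.24 (SE; limma adjusted p = 1.30e-06). Mmp25 started higher than Mmp9 in bone marrow, and per kb of exon the pair came to similar levels in small intestine: the ratio of Mmp9 to Mmp25 per kb was 0.175 to 0.598 over the bone marrow libraries and 0.894 to 1.19 over the small intestinal ones. Neither gene shares exon sequence with another annotated gene.

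Both genes are known from neutrophils. Of the 12 neutrophil genes, 11 fell in small intestine, and Retnlg was the 1 that rose, from 421 to 45675 normalised reads. The part of neutrophils in the levels of Mmp9 and Mmp25 was not tested. Mmp8, the neutrophil collagenase, rose by 1.08 ± 0.29 (SE; limma adjusted p = 0.0187), from 22.1 ± 7.38 to 49.7 ± 12.1 normalised reads (SD, n = 4 each). That call was lost under quantile normalisation, with a difference of 0.50 and adjusted p = 0.360.

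The collagenase Mmp13 (ENSMUSG00000050578, chr9:7272514-7283331, plus strand), whose promoter is printed above, had 0, 2, 1 and 8 reads in BM_1, BM_3, BM_4 and BM_5. In SI_6, SI_7, SI_10 and SI_11 it had 79, 30, 12 and 15. SI_6 was highest, BM_5 was highest of the bone marrow, and the groups did not overlap, although BM_5 and SI_10 came close. The mean rose from 2.42 ± 3.39 to 39.7 ± 33.4 normalised reads (SD, n = 4 each), and the difference was 3.02 ± 0.66 (SE; limma adjusted p = 0.00708). The ratio of the means was 16.4, more than this difference implies, because the deposited scale compresses low counts.

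Mmp14 (ENSMUSG00000000957, chr14:54431612-54445364, plus strand), the membrane enzyme that activates pro-Mmp2 on the cell surface, had 0, 1, 1 and 9 reads in BM_1, BM_3, BM_4 and BM_5 and 73, 25, 23 and 40 in SI_6, SI_7, SI_10 and SI_11. SI_6 and BM_5 again led their tissues. The mean rose from 2.49 ± 3.94 to 46.7 ± 23.8 normalised reads (SD, n = 4 each), and the difference was 3.49 ± 0.57 (SE; limma adjusted p = 0.00149).

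Within small intestine, SI_6, the library that led for Mmp13 and Mmp14, also led for the summed epithelial, fibroblast and smooth muscle markers. The summed level of 7 epithelial genes (Epcam, Krt8, Krt18, Krt20, Vil1, Cdh1 and Fabp2) ranged from 55.5 to 96.7 normalised reads in bone marrow and from 2150 (SI_10) to 13618 (SI_6) in small intestine, and all 7 rose. The 8 fibroblast genes summed to 136 to 262 in bone marrow and 340.2 to 992 in small intestine, with 6 higher, none lower and SI_6 again highest. The 5 smooth muscle genes summed to 76.6 to 159.9 and 688 to 1708, and all 5 rose. The endothelial sum and the macrophage and dendritic sum were highest in SI_11. Both were highest in SI_6 once their leading genes were left out. In SI_6 they reached 454 normalised reads without Pecam1 and 4637 without Lyz2, Itgax and Adgre1, respectively. Relative to the mean of the 4 small intestinal libraries, SI_6 stood at 2.17 for Mmp13 and 2.26 for the epithelial list, and SI_10 was lowest for both (0.331 and 0.357). For Mmp14 SI_6 stood at 1.71, and for Timp3 at 1.34. None of these lists was at 0 in small intestine, and their part in the rise of Mmp13, Mmp14 and Timp3 was not tested. Without SI_6 the differences were 2.56 (limma adjusted p = 0.0222) for Mmp13, 3.21 (adjusted p = 0.00750) for Mmp14 and 4.59 (adjusted p = 0.00181) for Timp3. Mmp9 and Mmp25 had their lowest small intestinal value in SI_6.

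**Figure D2:**
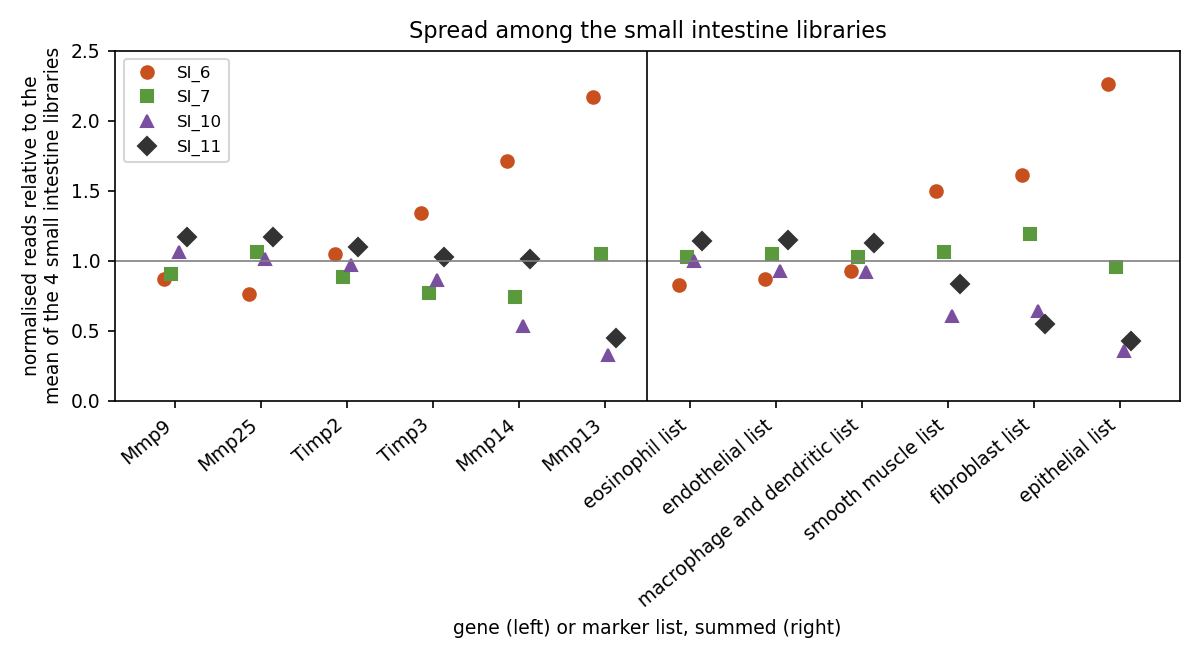
Normalised reads in the 4 small intestinal libraries relative to their mean, for 6 members on the left and the sums of marker lists on the right. The SI_6 circle is the highest point for Mmp13, Mmp14 and Timp3 and for the epithelial, fibroblast and smooth muscle lists, and the lowest for Mmp9, Mmp25 and the eosinophil and endothelial lists. The endothelial sum is mostly Pecam1, which leukocytes also express, and without Pecam1 it was highest in SI_6. The macrophage and dendritic sum was also highest in SI_6 without Lyz2, Itgax and Adgre1.

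Mmp12 (ENSMUSG00000049723, chr9:7344381-7369499, plus strand), macrophage elastase, had 0, 0, 1 and 20 reads in BM_1, BM_3, BM_4 and BM_5 and 8, 9, 11 and 2 in SI_6, SI_7, SI_10 and SI_11. BM_5 was the highest of all 8 libraries and held 20 of the 21 bone marrow reads, so the groups overlapped. The means were 4.89 ± 9.15 and 8.90 ± 4.67 normalised reads (SD, n = 4 each), and the difference of 1.45 ± 0.79 was not called (SE; limma adjusted p = 0.204). Without BM_5 the difference was 2.25 and was called (adjusted p = 0.0102). The exons of Mmp12 share 157 bases with those of Mmp1b on the other strand, so part of its reads is uncertain. Mmp1b had 7 reads in SI_6 and fewer in every other library. Of the 12 macrophage and dendritic genes, 8 rose (Adgre1, C1qa, C1qb, C1qc, Csf1r, Mertk, H2-Ab1 and Itgax) and Lyz2 fell. Their sum was 31286 to 43212 normalised reads in bone marrow, mostly Lyz2, against 30849 to 37831 in small intestine, mostly Itgax and Adgre1. Without Lyz2 it was 746 to 939 against 28285 to 34666, and without Lyz2, Itgax and Adgre1 it was 555 to 751 against 1949 to 4637. Adgre1 is not confined to macrophages, as the paper gated human eosinophils on EMR1, its human counterpart. The part of macrophages and dendritic cells in the level of Mmp12 was not tested.

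Mmp19 (ENSMUSG00000025355, chr10:128790910-128800824, plus strand), a secreted enzyme of broad substrate range, was the member that fell. It had 247, 214, 122 and 128 reads in BM_1, BM_3, BM_4 and BM_5. In SI_6, SI_7, SI_10 and SI_11 it had 8, 3, 17 and 27. Every bone marrow library was above every small intestinal one. The mean was 141 ± 33.7 normalised reads in bone marrow against 15.9 ± 12.3 in the small intestine (SD, n = 4 each), 8.89-fold lower, and the difference was -3.11 ± 0.47 (SE; limma adjusted p = 9.71e-04). Its exons overlap those of Tmem198b on the other strand by 789 bases and those of the antisense gene Gm47093, not analysed here, by 212, and the strand setting of the counting is not given in the sources used here, so the reads of these genes may not be separable. Tmem198b had a mean of 24.1 normalised reads in bone marrow against 11.1 in the small intestine, below the mean of Mmp19 in each tissue. It was above Mmp19 in SI_6 (14.2 against 8.73) and SI_7 (9.71 against 4.16), and below it in SI_10 and SI_11.

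Among the inhibitors, Timp2 and Timp3 rose and Timp1 was near the limit of detection in each tissue. Timp2 (ENSMUSG00000017466, chr11:118301069-118355740, minus strand), which inhibits MMPs broadly and also takes part in the activation of pro-Mmp2 by Mmp14, had 70, 148, 61 and 50 reads in BM_1, BM_3, BM_4 and BM_5 and 264, 176, 244 and 256 in SI_6, SI_7, SI_10 and SI_11. All small intestinal libraries were higher than all bone marrow libraries. The mean rose 4.32-fold, from 63.8 ± 22.4 to 276 ± 25.8 normalised reads (SD, n = 4 each), and the difference was 2.10 ± 0.25 (SE; limma adjusted p = 2.84e-04). Its values varied least of all members in small intestine, with a coefficient of variation of 9.37%.

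Timp3 (ENSMUSG00000020044, chr10:86300372-86349506, plus strand), the inhibitor that binds to the matrix, had 2, 3, 16 and 18 reads in BM_1, BM_3, BM_4 and BM_5. It had 320, 145, 206 and 228 in SI_6, SI_7, SI_10 and SI_11. The bone marrow libraries formed a low pair (BM_1 and BM_3) and a higher pair (BM_4 and BM_5), and both lay far below the small intestine. The mean rose 29.4-fold, from 8.88 ± 8.27 to 261 ± 65.2 normalised reads (SD, n = 4 each), and the difference was 4.74 ± 0.54 (SE; limma adjusted p = 2.27e-04). Timp3 lies inside Syn3 on the other strand, with 1733 bases of shared exon sequence. Syn3 had 15.6 ± 11.5 and 70.0 ± 25.6 normalised reads (SD, n = 4 each) and a difference of 2.11 ± 0.52 (SE; limma adjusted p = 0.0133).

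Timp1 (ENSMUSG00000001131, chrX:20870166-20874735, plus strand), the inhibitor that also binds the Mmp9 proenzyme, had 0, 1, 0 and 2 reads in BM_1, BM_3, BM_4 and BM_5 and 1, 4, 11 and 1 in SI_6, SI_7, SI_10 and SI_11. SI_10 was highest and the groups overlapped. The ratio of the means was 7.91, with a 95% interval of 2.39 to 44.1 that covers counting error only. Without SI_10 it was 4.15 and without BM_5 22.8. The difference of 1.31 ± 0.52 was not called (SE; limma adjusted p = 0.0848). It was not called under any of the 14 alternatives that kept the gene, with adjusted p from 0.0585 to 0.218. The small intestinal libraries, with at least 4791 reads of Mmp9, thus held at most 11 reads of Timp1.

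Per kb of exon, a scale on which genes can be compared, the order of the members changed between tissues. In bone marrow the mean normalised reads per kb were 39.9 ± 9.53 for Mmp19, 33.5 ± 7.14 for Mmp25, 16.4 ± 5.75 for Timp2 and 14.3 ± 6.92 for Mmp9 (SD, n = 4 each). The first pair lay within each other's spread, as did the second. The other members were at 1.09 (Timp3) or below. In small intestine Mmp9 came first with 2073 ± 291 and Mmp25 second with 1986 ± 340.5, a gap smaller than their SDs, and they ranked 238th and 256th of all genes per kb. Timp2 followed with 70.8 ± 6.63 and Timp3 with 32.1 ± 8.0, and Timp2 was above Timp3 in every library, with a ratio of Timp3 to Timp2 of 0.394 to 0.580. Mmp13 (14.8 ± 12.5), Mmp14 (7.84 ± 3.99), Timp1 (5.59 ± 5.80), Mmp19 (4.49 ± 3.49) and Mmp12 (1.23 ± 0.645) came last, and each neighbouring pair among these 5 differed by less than the larger of its SDs.

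The balance of enzyme to inhibitor transcripts among the members moved with tissue. Summed per kb, the 6 MMP members stood at 88.2, 99.7, 75.5 and 95.9 in BM_1, BM_3, BM_4 and BM_5 and at 3363, 4001, 4212 and 4775 in SI_6, SI_7, SI_10 and SI_11. The 3 TIMP members stood at 14, 25.7, 16.9 and 16.1 in the bone marrow libraries and 118, 93.6, 109.7 and 112 in the small intestinal ones. Transcripts of the MMP members exceeded those of the TIMP members 3.87- to 6.32-fold in bone marrow and 28.5- to 42.8-fold in small intestine, with no overlap. The other Mmp and Timp genes were left out of these sums, so the ratios hold for the members only. The Mmp genes left out were led by Mmp28 in bone marrow (mean 30.8 per kb) and by Mmp7 in small intestine (107). These are sums of transcripts and say nothing of active enzyme.

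**Figure D3:**
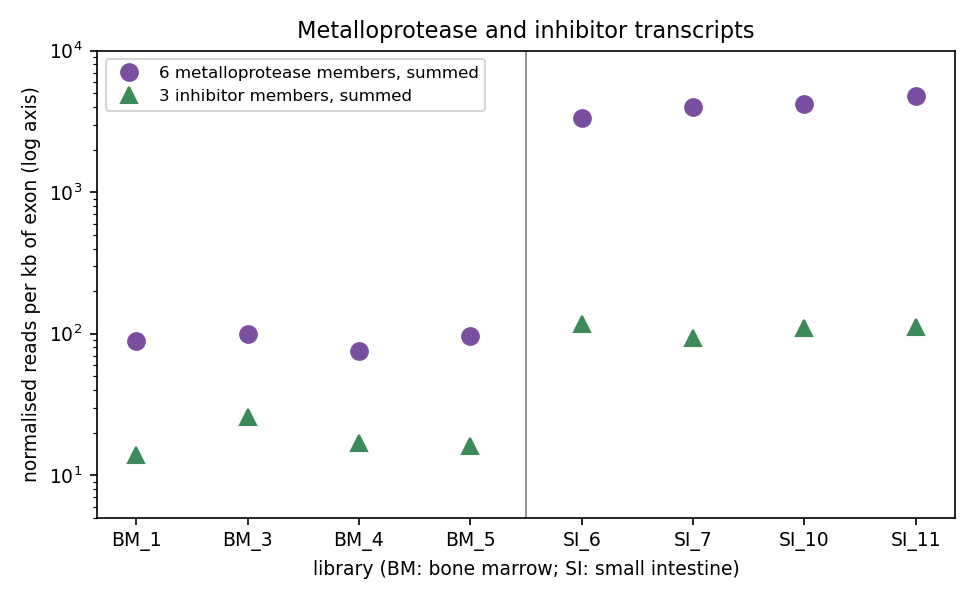
Summed normalised reads per kb of exon (log axis) of the 6 metalloprotease members (circles) and the 3 inhibitor members (triangles) in each library. The circles rise from 75.5 to 99.7 in bone marrow to 3363 to 4775 in small intestine, and the triangles from 14 to 25.7 to 93.6 to 118, so the gap between the symbols is wider in every small intestinal library.

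The make-up of the MMP reads changed as well. Over all 23 Mmp genes there were 555 to 904 reads per bone marrow library against 13171 to 18002 per small intestinal library. Mmp9 and Mmp25 together made up 29.3% to 46.9% of these reads in bone marrow and 94.7% to 98.0% in small intestine. Mmp19 made up 18.6% to 34.0% in bone marrow and 0.0228% to 0.150% in small intestine. Mmp28 (epilysin), which is no member, made up a further 16.3% to 25.2% in bone marrow.

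Of the other 18 Mmp and Timp genes, 8 rose in small intestine, 1 fell and 9 were not called, with a median difference of 1.16, against 22.0% higher, 12.9% lower and a median of 0.37 over all genes. Mmp28 fell from 119 ± 18.7 to 14.2 ± 4.75 normalised reads (SD, n = 4 each), a difference of -2.83 ± 0.26 (SE; limma adjusted p = 7.23e-05), so that Mmp19 and Mmp28 were the 2 falls in the family, joined under quantile normalisation by Mmp21. Its exons share 466 bases with a gene on the other strand. Mmp7 (matrilysin), an enzyme of Paneth cells that activates their defensins, had 0, 0, 0 and 7 reads in BM_1, BM_3, BM_4 and BM_5 and 235, 92, 39 and 27 in SI_6, SI_7, SI_10 and SI_11. Its difference was 4.91 ± 0.77 (SE; limma adjusted p = 0.00127), and SI_6, the library with the highest epithelial sum, was again highest. Mmp2 (gelatinase A), the substrate of Mmp14, rose from 11.3 ± 7.61 to 69.7 ± 27.1 normalised reads (SD, n = 4 each) with a difference of 2.38 ± 0.42 (SE; limma adjusted p = 0.00228). Its level was also highest in SI_6, at 103 normalised reads against 44.4 to 81.0 in the other small intestinal libraries. The part of other cell types in this rise was not tested. Mmp23, a membrane MMP, rose from 9.82 to 62.3, and Mmp24, another membrane MMP, from 2.02 to 28.3 normalised reads. The exons of Mmp7 and Mmp24 share 123 and 637 bases with genes on the other strand, so part of their reads is uncertain. Mmp15, again a membrane MMP, had 3 reads in bone marrow, all in BM_5, and 36, 8, 23 and 13 in SI_6, SI_7, SI_10 and SI_11. Mmp27 had 1 read in bone marrow and 9, 16, 9 and 24 in the same small intestinal order. Mmp17 rose by 1.72 ± 0.56 (SE; limma adjusted p = 0.0434), from 3.41 to 12.2 normalised reads, a call lost under 9 of 14 alternatives, among them the leaving out of any 1 of the 7 libraries other than BM_5. Mmp10 (1.97) and Mmp11 (1.46) were called higher without BM_5, and Mmp16 without BM_1 (1.62) and with the filter of 10 reads on average (1.25). Read against the promoter letters, the 8 genes with an AP-1 match held 2 that rose (Mmp13 and Mmp7) and 6 that were not called. The 14 genes with a window but no match held 9 that rose, 1 that fell and 4 that were not called. The sets differ in level, with means of 2.01 to 115 normalised reads in small intestine for the first and 1.71 to 10533 for the second. Mmp9 has no window and is in neither set. A link of letters and calls was not tested. Mmp3, with the AP-1 and TATA letters shown above, had at most 5 reads in any library.

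**Figure D4:**
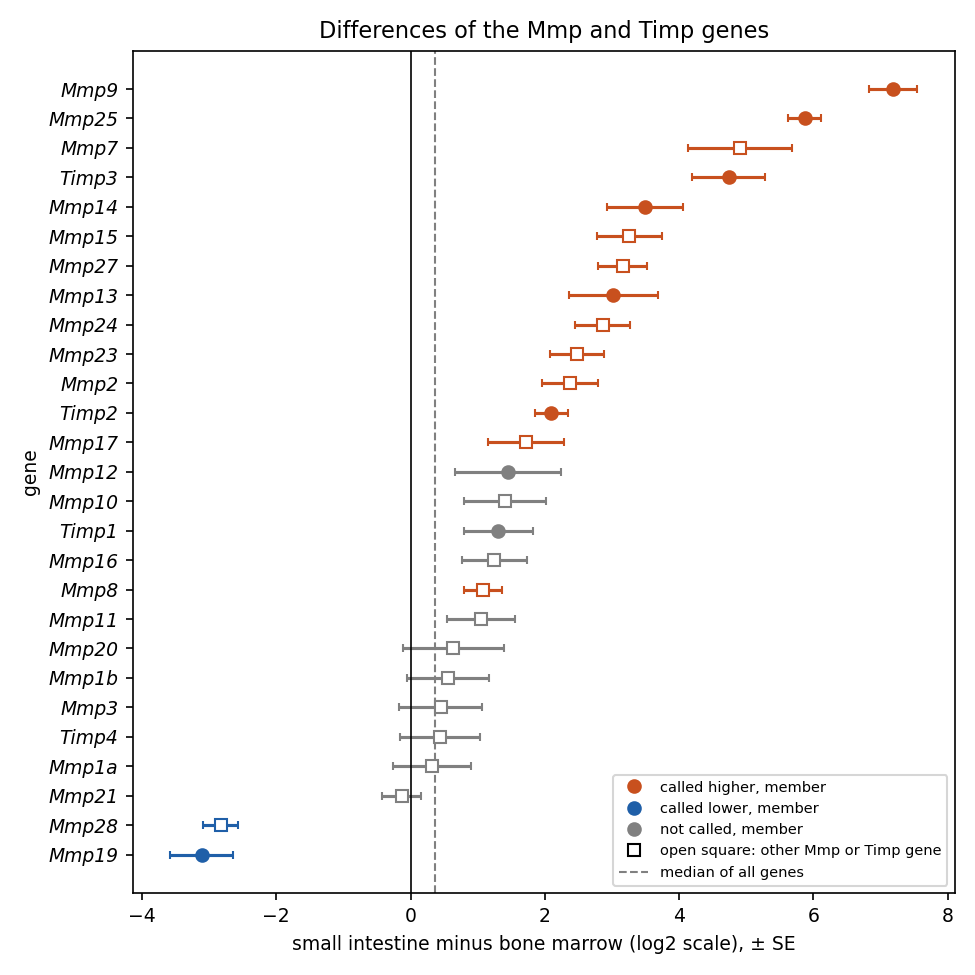
Difference between small intestine and bone marrow (log2 scale, bars ± SE) of the 27 Mmp and Timp genes, with filled circles for members, open squares for other family genes, orange for genes called higher, blue for called lower and grey for not called. Mmp9 and Mmp25 lie farthest to the right at 7.19 and 5.87, Mmp19 and Mmp28 are the 2 genes in blue on the left, and the dashed line marks the median of all genes at 0.37.

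Activators, surface partners and other inhibitors of MMPs were read as a list of 26 genes. Of these 11 rose, 7 fell and 8 were not called, with a median difference of 0.90, against 22.0% higher and 12.9% lower over all genes. Among the 16215 genes with at least 10 reads on average the shares were 39.2% and 33.7%. With that filter 11 genes of the list were called higher and 7 lower. Some genes of the list, among them Plg and A2m, fall below the filter. The full list and the filtered shares are thus unlike sets, and no enrichment is read from these counts. Among the large rises was that of Serpinb2, an inhibitor of urokinase (27.5 ± 19.4 to 20650 ± 4175 normalised reads, SD, n = 4 each; difference 9.53). It was followed by Pcsk5, a proprotein convertase (difference 5.20, limma adjusted p = 0.00257), which was highest in SI_6 with 461 reads, and by Plaur, the urokinase receptor (difference 3.89, adjusted p = 2.49e-06). The largest falls were those of Elane, neutrophil elastase (79791 to 80.5 normalised reads; difference -9.88), and Lcn2, the lipocalin that binds Mmp9 (25192 to 44.3; difference -9.04), both of which also stand on the neutrophil list. Reck, a membrane-anchored MMP inhibitor, fell from 245 ± 26.0 to 29.7 ± 9.02 (difference -2.93, limma adjusted p = 3.58e-05), and the serine protease inhibitor Tfpi2 from 17.4 to 1.74 (difference -2.07, adjusted p = 8.64e-04). Chosen after their values were seen, Furin, the convertase that activates membrane MMPs, rose by 1.90 ± 0.21, and Cd44, a docking site for Mmp9 on the cell surface, rose by 1.43 ± 0.18 to 17134 normalised reads. The sheddase Adam17 (1104 and 1101 normalised reads in bone marrow and small intestine), the MMP inducer Bsg (1620 and 1564), the convertase Pcsk7 (515 and 489.7), the integrin Itgb1 (2219 and 2982), the scavenger receptor Lrp1 (366 and 475), the plasma inhibitors Pzp (5.72 and 13.2) and A2m (3.98 and 7.72) and the zymogen Plg (1.49 and 8.55) were not called.

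The genes whose profile over the 8 libraries was nearest to that of a member, by the root mean square difference after each gene's mean was subtracted, are a description with no test. For Mmp9 they were Adgre4 (0.27 on the log2 scale) and Dpep2 (0.29), and for Mmp25 the kinase gene Pim1 (0.17) and the elongation factor gene Ell2 (0.19). Pim1 reached 20996 normalised reads in small intestine and Adgre4 8249. Mmp13 was nearest to Sema3c (0.24) and Nhsl1 (0.28). Mmp14 was nearest to Gucy1a1 (0.28) and Cald1 (0.32), genes of nitric oxide signalling and of the actin cytoskeleton. For Mmp19, which fell, they were Emp3 (0.40) and Prss16 (0.42). The inhibitors gave Fam219a and Cd82 (0.19 each) for Timp2 and Hspa1a (0.39) and Myo5c (0.50) for Timp3. The likeness rests on 8 libraries that share 1 tissue contrast.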

How the data were processed

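RNA from sorted eosinophils was amplified to cDNA and sequenced from a single end. The authors processed the reads with nf-core/rnaseq against GRCm38 (Ensembl release 86) and, per the labels, with DESeq2 and R 4.0.3. The deposited values are variance stabilised and on a log2 scale that compresses low counts. Differences of genes with few reads can therefore be smaller than the log2 of the ratio of their means. Which aligner and strand setting were used, and how reads matching several genes were treated, is not given in the sources used here. The table is that of the tissue comparison. Its column names gave the tissue but not the single sample, and all of its library columns were used.

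The lowest deposited value, 0.92971568, allowed the transformation to be inverted. With size factors of 0.721 to 1.53, whole reads were recovered within 0.05 for 100.0% of genes in each library. Totals of 11508002 to 21289164 reads set the precision, and intervals (95%) cover counting error only.

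Genes were compared with limma 3.58.1 (R 4.3.3) on the deposited log2 values of all 38392 genes, without filter or covariate, 2-sided and with Benjamini-Hochberg adjustment at 0.05, since the deposited unit is log2. The count model of the study was not run. The scripts were tested on simulated data. Alternatives were limma voom on recovered reads, a filter of 10 reads on average, median centring, quantile normalisation, a mean-variance trend, pseudocounts of 1 and 5 on normalised reads (for counts of calls chosen after the data were seen), and leaving out each library. Sums of marker lists without their leading genes and the ratio of Timp1 without 1 library were also chosen after the data were seen. Coordinates, exon lengths and overlaps came from GENCODE M21 (GRCm38), in which all 38392 identifiers were found. Levels per kb are normalised reads over the union of exons. Figures were drawn with matplotlib 3.10.9, and intervals were computed with scipy 1.17.1, in Python 3.11.15 with pandas 2.3.3 and numpy 2.4.6.

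The members and lists were chosen with earlier results of these data known. The genes named were all 9 members, other Mmp and Timp genes called with a mean of at least 10 reads in a tissue, the 4 largest called differences in each direction and the genes not called among the activators, partners and inhibitors, and the 2 nearest profiles per member with that mean, leaving out predicted genes, RIKEN clones and clone-based symbols. Of each cell type list, the markers that describe its range were named. A gene that this rule names is not reported here.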

Additional observations from a re-analysis of the deposited data

Results flagged for a closer look

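In 8 of 122 groups of 4 libraries, the highest or lowest library lay far from the others, by a gap to its neighbour beyond Dixon's critical value (95%) as a share of the range. Chance gives about 1 in 20. In 5 of the 8 the other 3 libraries had 0 reads, so that the gap was the whole range (1.0). Among these 5, Mmp15 (3 reads), Mmp1b (2), Mmp7 (7) and Timp4 (3) had their bone marrow reads in BM_5 alone, and Mmp27 had its 1 read in BM_3.

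Mmp25 was lowest in BM_1 within bone marrow (gap 0.849 of the range, 122 normalised reads against 189 to 204), and without BM_1 its difference was 5.70. Itgb1 was highest in SI_11 within small intestine (0.831). The endothelial sum was highest in BM_4 within bone marrow (0.874), at 558 normalised reads against 434 to 448.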

How the results depend on the processing

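Members gave 6 rises and 1 fall under each of 15 alternatives, with 1 exception: without BM_5 there were 7 rises, Mmp12 being added. The member calls kept their direction and threshold, with the highest adjusted p at 0.0329 for Mmp13, and Mmp9 ranged from 6.62 to 7.44 and Mmp25 from 5.51 to 5.99. Under quantile normalisation 2 of the other family genes fell in place of 1, Mmp21 being added (difference -1.01), and Mmp1a (-0.31), Mmp20 (-0.06), Mmp3 (-0.13) and Timp4 (-0.0043), none of them called, reversed. Leaving out 1 library in turn, Mmp21 ranged from -0.27 to 0.11, Mmp1a from -0.05 to 0.69 and Timp4 from -0.01 to 0.85. The cause was not tested. Of all calls 63.2% were higher in small intestine, against 45.8% under quantile normalisation, where the median difference of all genes was -0.03 in place of 0.37, and 53.8% with the filter, which tests 16215 genes. No paired analysis was possible because neither the columns nor the sample titles of the tissues share a replicate number.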

Other observations

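The mast cell and basophil list, which no result above uses, summed to 127 to 199 normalised reads in bone marrow and 16.6 to 42.7 in small intestine, with Cpa3 and Mcpt8 lower and Mcpt4 at 0 reads in all bone marrow libraries. Of the 6 endothelial genes 5 rose and 1 fell, with sums of 434 to 558 normalised reads in bone marrow and 7434 to 9809 in small intestine. These sums are mostly Pecam1, which leukocytes also express, and without it they were 46.0 to 129 and 298 to 454.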
